A study of Homo sapiens with 3 samples.

Results

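Transcript levels of 8 transcription factors of the hepatocyte lineage, FOXA1, FOXA2, FOXA3, CEBPA, CEBPB, PROX1, ONECUT1 and CREB3L3, were read from gene tables of libraries labelled HepG2, a line long established from a human liver tumour. The members were the rows with these gene names on the main chromosomes, and all 8 were found among the 39320 rows that 3 tables shared. The samples were 3 replicates of wild-type cells (genotype WT), with no treatment, time course or second genotype in the labels, so they form 1 condition. The labels do not say whether the replicates came from separate cultures, and the SD over 3 libraries may therefore be technical. The poly(A) RNA was sequenced as 150 bp paired-end reads, and each table gives TPM (transcript abundance scaled for gene length and to the same total in each library), FPKM and coverage (a read depth per base).

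The hepatocyte programme is set by a small network of factors that bind each other's genes and those of plasma proteins and liver enzymes. The FOXA proteins are pioneer factors, which use a forkhead domain to bind DNA that is still packed in chromatin and open it for other factors. The C/EBP proteins pair through a leucine zipper, and C/EBPα is known for the mature, resting hepatocyte while C/EBPβ is known for the acute-phase response and liver regeneration. ONECUT1 (also called HNF6) has a cut domain and a homeodomain, PROX1 is a homeodomain factor of the hepatoblast, and CREB3L3 (CREBH) is held in the membrane of the endoplasmic reticulum until it is cut free to enter the nucleus.

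Only CEBPB, FOXA1 and CEBPA reached 1 TPM in every library. CEBPB, at 73.1 ± 15.4 TPM (SD, n = 3), was far above FOXA1, at 2.29 ± 0.0437 TPM, and CEBPA, at 1.76 ± 0.0600 TPM. CREB3L3 and FOXA3 stayed below 0.1 TPM, and FOXA2, ONECUT1 and PROX1 were listed at 0 in all 3 libraries. The 3 of 8 members at 1 TPM or more are 37.5%, close to the 33.8% of all rows that met the same limit. Among the 19323 rows of protein-coding genes it was met by 59.5%. The 3 members listed at 0 are also 37.5%, beside 40.7% of all rows and 19.8% of protein-coding rows. These shares are a description of a list chosen with earlier results known. In RNA from bulk cells, fewer cells that use a gene and less RNA per cell cannot be told apart.

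**Figure D1:**
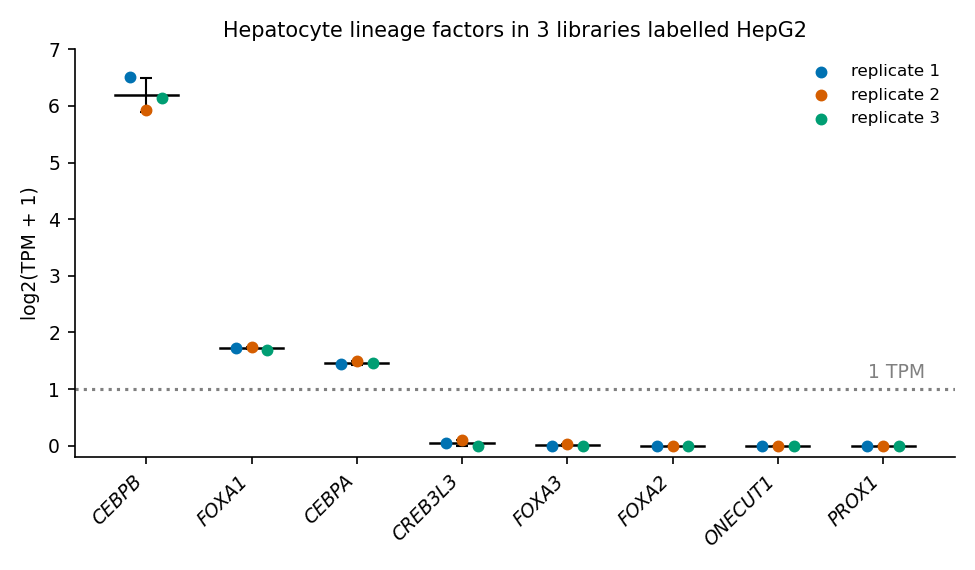
Level of each of the 8 factors in the 3 libraries labelled HepG2, as log2(TPM + 1). Points are libraries, and the line and bars are the mean and SD on that scale. CEBPB stands near 6, FOXA1 and CEBPA lie between 1 and 2, and the other 5 lie at or next to 0.

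The label was set against known targets of the members and against factors of other lineages. Of 12 genes that these factors are known to act on, IGFBP1, a binding protein of insulin-like growth factors, alone reached 1 TPM in every library, with 12.9 ± 0.749 TPM (SD, n = 3). That is 8.33% of the list, beside 33.8% of all rows and 59.5% of protein-coding rows. The others were below 1 TPM in all 3 libraries, and 6 of them, including ALB, CRP and HAMP, were listed at 0 throughout. These 6 are 50% of the list, beside 40.7% of all rows and 19.8% of protein-coding rows. The next highest were TAT, a tyrosine-degrading enzyme, at 0.170 ± 0.0337 TPM and TTR, the thyroxine carrier, at 0.118 ± 0.0812 TPM (SD, n = 3). The median over the list was 0.00282 TPM, below the 0.0619 TPM of all rows. Of 12 factors that mark other lineages, 10 were below 1 TPM in every library and 7 were listed at 0 in all 3, among them CDX2 of the intestine, PDX1 of the pancreas and SOX10 of the neural crest. The 7 at 0 are 58.3%, beside 40.7% of all rows and 19.8% of protein-coding rows. The 2 that reached 1 TPM in every library are 16.7%, beside 33.8% of all rows and 59.5% of protein-coding rows. Below it in every library were 25119 of all 39320 rows. NKX2-1, a factor of lung and thyroid, had 3.89, 3.68 and 3.65 TPM in replicates 1, 2 and 3, and PAX8, of kidney and thyroid, had 1.15, 1.47 and 1.11 TPM. TP63, of squamous epithelium, came next with 0.771 ± 0.0275 TPM (SD, n = 3). The summed level of the 12 lay between 5.91 and 6.43 TPM. As a set, and apart from IGFBP1, the levels of the 12 targets thus go against the label. Among the members, FOXA2, ONECUT1 and PROX1 were also at 0. NKX2-1 was above FOXA1 and CEBPA in each library, and PAX8 was below both. The 12 targets were listed as targets of the members and not as markers of the line. That list was chosen with earlier results known, and whether the state of the cells keeps some targets low was not tested. The values below hold for the libraries labelled HepG2.

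Sequence around the gene starts was taken from RefSeq (GRCh38.p14), which holds a window of 300 bases, 250 of them before the start, for 6 of the 8 members. CEBPB has a pair of windows because it has 2 starts, so the members have 7 windows in all. FOXA2 and PROX1 are not in that table. The letters TATAAA, the core of the TATA box that places the start of transcription, were searched on both strands and occurred in 3 of the 7 windows, beside 11.5% of all 35116 windows. The 3 matches are shown because they fall in genes at both ends of the order of levels, with the matched letters in capitals, on the strand of the gene and upstream of its start.
CEBPB: gggccgccctTATAAAtaaccgggct
CEBPA: gcctgccgggTATAAAagctgggccg
FOXA3: gtgtcccggcTATAAAgcgtggccgc

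The stretch of CEBPB lies on the plus strand at chr20:50190791-50190816, the one of CEBPA on the minus strand at chr19:33302549-33302574, and the one of FOXA3 on the plus strand at chr19:45864286-45864311. The deposited rows of CEBPB and CEBPA begin upstream of the RefSeq starts used here and include the matched letters, while the row of FOXA3 begins downstream of them. The forkhead letters TGTTTGC occurred in 1 of the 7 windows, that of FOXA1, beside 3.89% of all windows. They are shown because FOXA1 is itself a forkhead factor, and they read here as their reverse complement, GCAAACA, on the minus strand at chr14:37595469-37595494.
FOXA1: acactgctttGCAAACAaagtgaggg

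The other letters searched on both strands, TGTTTAC for forkhead proteins, TTGCGCAA for C/EBP dimers, TGACGT for CREB proteins and ATCGAT for cut proteins, were not in the members' windows and were in 3.42%, 0.151%, 7.98% and 0.763% of all windows. No match overlapped another. A match of letters is not a measured binding site.

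FOXA1, which opens chromatin early in liver development and also in breast and prostate, occupies positions 37589552 to 37595113 of chromosome 14 (minus strand). Replicates 1, 2 and 3 gave 2.30, 2.33 and 2.24 TPM. The 3 libraries were nearly level, and the coefficient of variation (CV, the SD as a percentage of the mean) was 1.91%. Of the 13753 expressed genes, those averaging 1 TPM or more, 8.45% had a lower CV. By level, FOXA1 was above 12.1% of them, near the low end of the expressed range. Its FPKM was 1.09, 1.11 and 1.08 and its coverage 12.6, 11.7 and 10.5 in the same order. The row of TTC6 overlaps it on the other strand over 1955 bp, with 0.163, 0.147 and 0.0918 TPM, and the strand setting of the quantification is not given in the sources used here.

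FOXA2, which shares early liver and endoderm functions with FOXA1, was listed at 0 TPM in all 3 libraries. Its row covers positions 22581004 to 22585463 of chromosome 20 (minus strand). The nearest rows on either side, LINC00261 at 2361 bp and LNCNEF at 2058 bp, are long noncoding RNAs and were likewise listed at 0 throughout.

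FOXA3, the FOXA gene known for the later, differentiated liver, was listed at 0 in replicates 1 and 3 and had 0.0237 TPM in replicate 2. Its row covers positions 45864326 to 45873797 of chromosome 19 (plus strand). With the length of the GENCODE v44 transcript that has the same ends, 1923 bases, the coverage of 0.146 in replicate 2 comes to about 280 aligned bases, for which 2 reads of 150 bases suffice. The closest gene, SYMPK, whose row ends 1035 bp away, had 53.0, 52.2 and 52.5 TPM, so the low value of FOXA3 was not shared by its neighbour.

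All 49 rows of the FOX family were ranked to place the FOXA genes among their relatives. At least 1 TPM in every library was reached by 25 of them, or 51.0%, beside 33.8% of all rows and 59.5% of protein-coding rows. The 9 listed at 0 in all 3 libraries are 18.4%, beside 40.7% of all rows and 19.8% of protein-coding rows. The median of the family was 1.51 TPM, against 0.0619 TPM over all rows, which include noncoding RNAs. FOXM1, a factor of dividing cells, was highest at 109 ± 4.88 TPM, followed by FOXF2, known from the mesenchyme of the gut, at 48.6 ± 4.18 TPM, and the widely used FOXK2 at 33.9 ± 2.18 TPM (SD, n = 3). FOXA1 ranked 23rd, between FOXP1 at 3.27 ± 0.974 TPM and FOXO6 at 1.79 ± 0.396 TPM (SD, n = 3). The values of FOXA1 lay below all 3 of FOXP1 and above all 3 of FOXO6.

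**Figure D2:**
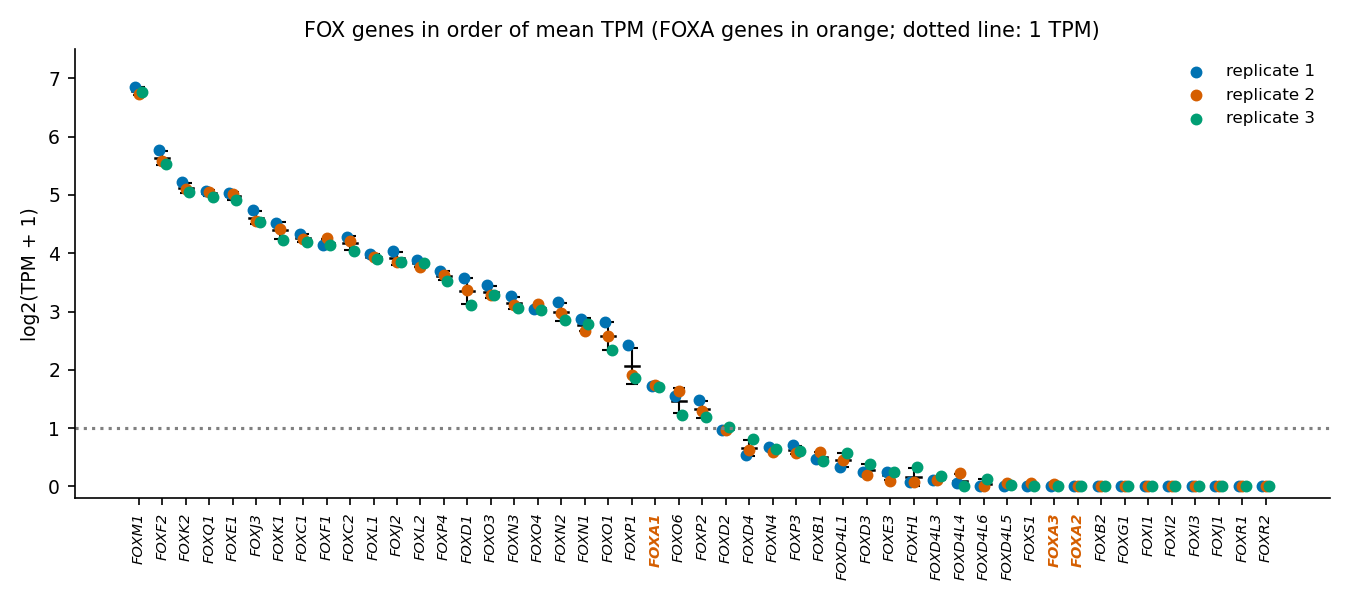
Level of the 49 FOX genes as log2(TPM + 1), in order of mean TPM, with the names of the FOXA genes in orange. Points are libraries and bars the mean and SD on that scale. FOXA1 is 23rd, above the dotted line of 1 TPM, while FOXA3 and FOXA2 lie at the low end.

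CEBPA, the factor of the mature hepatocyte, is a single-exon gene at positions 33299934 to 33302564 of chromosome 19 (minus strand). It had 1.72, 1.83 and 1.74 TPM in replicates 1, 2 and 3, and its FPKM was 0.811, 0.874 and 0.832. As with FOXA1, the libraries lay close together, with a CV of 3.41%. Coverage of 10.8, 11.2 and 9.55 over the 2631 bases of the row gave 28311, 29541 and 25117 aligned bases, or at least 189, 197 and 168 reads of 150 bases. CEBPA exceeded 8.17% of expressed genes in level. The noncoding RNA CEBPA-DT, which starts 256 bp away and is read in the opposite direction, had 0.0997, 0.0435 and 0.107 TPM.

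CEBPB, the factor of the acute-phase response, is a single-exon gene at positions 50190583 to 50192690 of chromosome 20 (plus strand). Replicates 1, 2 and 3 gave 90.1, 59.9 and 69.4 TPM. Replicate 1 was the highest and replicate 2 the lowest, and the CV was 21.1%. Among the 8419 genes averaging 10 TPM or more, 99.0% had a lower CV, and their median CV was 4.88%. The range of log2(TPM + 1) was 0.58, below the limit of 1 that 0.273% of those genes passed. In level, CEBPB exceeded 85.0% of expressed genes. Its FPKM was 42.5, 28.6 and 33.3. The coverage, 565, 368 and 382 in the same order, came from 1190477, 775081 and 804638 aligned bases, so at least 5168 reads of 150 bases lay behind each value.

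**Figure D3:**
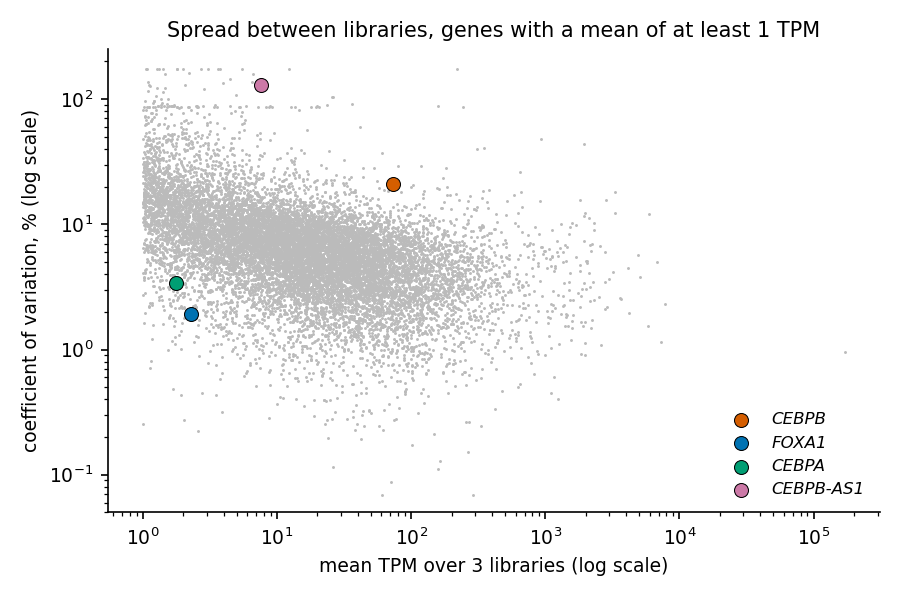
CV over 3 libraries against mean TPM, both on log axes, for the 13753 expressed genes (grey points). CEBPB, at a CV of 21.1%, lies at the upper edge of genes of its level, while FOXA1 (1.91%) and CEBPA (3.41%) lie low among theirs. The pink point is CEBPB-AS1, the antisense RNA described next.

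The row of the antisense RNA CEBPB-AS1 overlaps CEBPB over 1487 bp on the minus strand, and it moved with the library. CEBPB-AS1 had 2.00, 19.0 and 1.77 TPM, and its level in replicate 2 was 9.50 times that of replicate 1 and 10.7 times that of replicate 3. Replicate 2 was thus highest for the antisense row and lowest for CEBPB. The range of log2(TPM + 1) of CEBPB-AS1 was 2.85, and 1.26% of expressed genes had a range above 1. Summed over both rows, the level was 92.1, 78.9 and 71.2 TPM, with a CV of 13.1%, which still exceeded that of 96.2% of the genes averaging 10 TPM or more. CEBPB-AS1 made up 2.17%, 24.0% and 2.49% of the sum. Within the 1487 bp of overlap, reads of the gene and of its antisense partner cannot be told apart without the strand setting. The part of the antisense row in the spread of CEBPB was not tested. Replicate 1 was the highest for CEBPB with or without the antisense row.

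**Figure D4:**
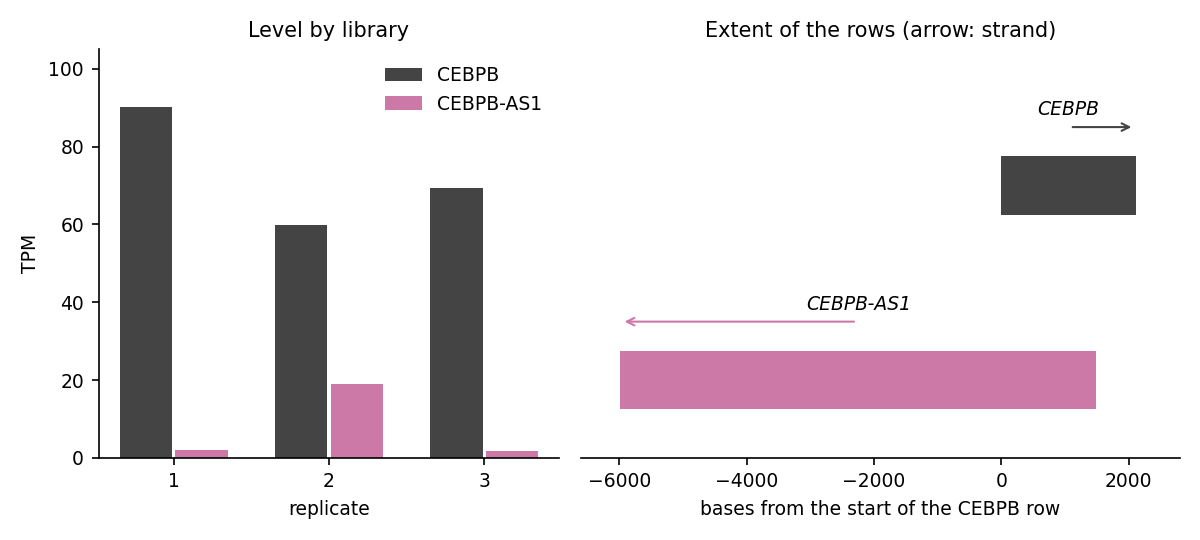
Left, TPM of CEBPB and CEBPB-AS1 in each library, on an axis from 0. Right, extent of both deposited rows in bases from the start of CEBPB, with arrows for the strand. In replicate 2 the antisense row rises to 19.0 TPM while CEBPB is at its lowest, 59.9 TPM.

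The 2 C/EBP members were far apart in level. CEBPB was 52.5, 32.7 and 40.0 times as high as CEBPA by TPM in replicates 1, 2 and 3, and the lowest CEBPB value exceeded the highest of CEBPA. Of 6 relatives and partners of the C/EBP proteins, 5 reached 1 TPM in every library, or 83.3%, beside 33.8% of all rows and 59.5% of protein-coding rows. ATF4, a stress factor that can pair with them, had 237 ± 8.73 TPM, ATF5 had 45.7 ± 1.90 TPM, and CEBPD, which acts with CEBPB in the acute phase, had 38.2 ± 5.26 TPM (SD, n = 3). CEBPD was below CEBPB in each library, with CEBPB 2.10, 1.53 and 2.13 times as high. CEBPG, which lacks an activation domain, had 15.3 ± 1.11 TPM (SD, n = 3), and CEBPE, known from granulocytes, was listed at 0 in all 3 libraries. Among the C/EBP genes, CEBPA was therefore next to last, and its range did not overlap those of CEBPB, CEBPD and CEBPG.

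PROX1 and ONECUT1, the homeodomain members, were each listed at 0 TPM in all 3 libraries. The row of PROX1 spans 58272 bp of the plus strand of chromosome 1, from 213983239 to 214041510, and PROX1-AS1, which overlaps it over 2915 bp, was also at 0 throughout. ONECUT1 covers positions 52755053 to 52790264 of chromosome 15 (minus strand). Of 5 noncoding RNAs on a list drawn up for the members' surroundings, CEBPB-AS1 alone reached 1 TPM in every library, and CEBPA-DT was lower. PROX1-AS1, LINC00261 and LINC01370 were listed at 0. Over all rows, 33.8% reached that limit and 40.7% were listed at 0. LINC01370 does not lie next to a member. LINC01273, which is not on the list and lies 13911 bp from CEBPB, had 2.64, 2.78 and 2.65 TPM. Of 7 relatives of these genes, 4 reached 1 TPM in every library, or 57.1%, close to the 59.5% of protein-coding rows and above the 33.8% of all rows. CUX1, a widely used cut factor, had 56.9 ± 2.70 TPM (SD, n = 3), and ONECUT2, the paralog of ONECUT1, had 9.84, 9.08 and 8.23 TPM. ONECUT3 and CUX2 were listed at 0 in all 3 libraries, and PROX2 had 0.668, 0.476 and 0.453 TPM. ONECUT2 was thus the ONECUT gene with the highest level, and the other ONECUT genes had no value above 0.

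CREB3L3, which in liver controls genes of fasting and lipid metabolism, covers positions 4153601 to 4173054 of chromosome 19 (plus strand). It had 0.0324 TPM in replicate 1 and 0.0698 TPM in replicate 2 and was listed at 0 in replicate 3. Its coverage of 0.202 and 0.428 means less than 1 read per base. The closest row, SIRT6 at 1054 bp, had a mean of 27.9 TPM with a CV of 0.412%. The rest of its family and the genes of its activation were higher. Of the 9 on the list, 8 reached 1 TPM in every library, or 88.9%, beside 33.8% of all rows and 59.5% of protein-coding rows. XBP1, a factor of the unfolded protein response, had 74.4 ± 4.47 TPM, CREB3L2 had 47.5 ± 2.49 TPM, and CREB3 had 41.2 ± 1.97 TPM (SD, n = 3). The Golgi proteases that cut CREB3L3 free, MBTPS1 and MBTPS2, had 39.2 ± 2.10 and 39.8 ± 4.44 TPM (SD, n = 3). CREB3L4 had 8.38 ± 0.809 TPM (SD, n = 3), and CREB3L1, with 0.178, 0.0990 and 0.0388 TPM, was the only other CREB3 gene below 1 TPM.

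**Figure D5:**
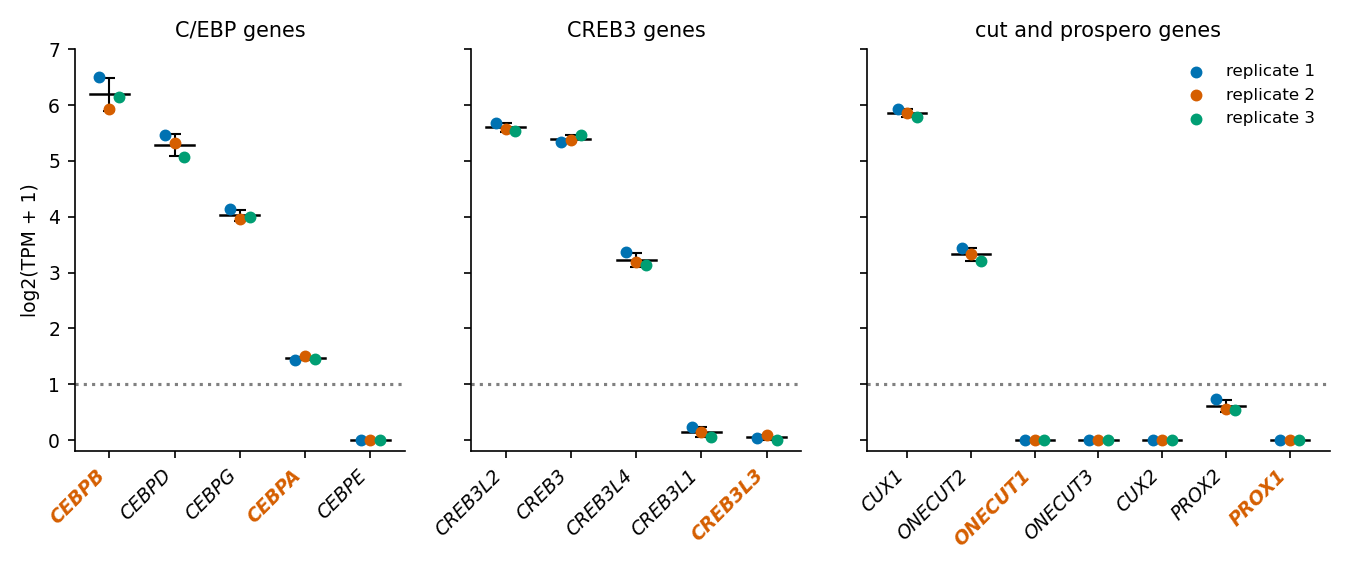
Levels of the C/EBP, CREB3 and cut and prospero genes as log2(TPM + 1), with the members' names in orange and a dotted line at 1 TPM. Points are libraries and bars the mean and SD on that scale. CEBPB is the highest of the 5 genes named CEBP, while CEBPA, CREB3L3, ONECUT1 and PROX1 lie below several relatives.

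In order of mean TPM the members ran CEBPB, FOXA1, CEBPA, CREB3L3 and FOXA3, followed by FOXA2, ONECUT1 and PROX1 at 0. The ranges of 3 of the 7 pairs of neighbours did not overlap, those of CEBPB and FOXA1, FOXA1 and CEBPA, and CEBPA and CREB3L3. CREB3L3 and FOXA3 were both at 0 in replicate 3, so these neighbours could not be separated. The difference between FOXA1 and CEBPA was small but held in each library, with FOXA1 1.34, 1.27 and 1.29 times as high by TPM, a difference of 0.25 ± 0.02 (SD, n = 3) on the log2(TPM + 1) scale. By coverage, which is not scaled for library size, their ranges overlapped, and FOXA1 was 1.17, 1.04 and 1.10 times as high within the libraries. Library size cancels in these ratios. The ratio of coverage to FPKM was 0.873, 0.815 and 0.848 of the library's highest for FOXA1 and about 1 for CEBPA. Coverage thus does not compare the 2 genes on an equal scale, and the reason was not tested. On the same scale the difference to CEBPB was -4.47 ± 0.30 for FOXA1 and -4.73 ± 0.32 for CEBPA (SD, n = 3). All 28 pairs of members were compared within libraries by an exact permutation test that flips signs (two-sided), and in 18 of them 3 of 3 libraries pointed the same way. Each of these 18 includes CEBPB, FOXA1 or CEBPA, so most repeat the split at 1 TPM given above. The other 10 pairs were tied in at least 1 library, and none had libraries pointing opposite ways. The smallest p was 0.25, the lowest that 3 libraries allow, and 0.389 after Benjamini-Hochberg adjustment over the 28 pairs, so no pair could pass 0.05.

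The genes most like each expressed member in level were those with the smallest maximum difference of log2(TPM + 1) over the 3 libraries. For FOXA1 they were ALPK1, with 2.36, 2.30 and 2.28 TPM, and ZNF71, each within 0.03 on that scale. For CEBPA they were GARS-DT and POLI, also within 0.03. No gene lay as close to CEBPB, for which CDK6, with 79.3, 65.4 and 62.8 TPM, was nearest at a difference of up to 0.18, and SNORA40 came next at 0.19. The likeness is one of level over 3 libraries of 1 condition.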

How the data were processed

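RNA-seq was analysed in 3 libraries labelled HepG2, which form 1 group. The submitters' processing notes name FastQC 0.11.8, Trim Galore 0.6.2, STAR 2.6.1a, StringTie and the build GRCh38. The annotation and strand setting are not given in the sources used here. In the deposited tables, coverage is a depth per base without scaling for the library, and its ratio to FPKM differed between genes within a library. The deposited FPKM is scaled for length and library, and the deposited TPM was scaled to a total of 1000000. Read counts were not used here, so no counting interval is given. By the highest ratio of coverage to FPKM, replicates 1 and 2 were 1.16 and 1.12 times as deep as replicate 3.

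Rows on the main chromosomes that matched in gene, strand and position across the 3 tables gave 39320 joined rows. The deposited TPM was used directly, with at least 1 TPM called expressed, a pseudocount of 1 for log2 values, and an exact permutation test that flips signs. Aligned bases are coverage times length. RefSeq biotypes were matched by symbol or synonym for 35978 rows. The members, lists and tests were chosen with earlier results of these data known. The genes named were the members, the 3 highest of each list with any gene of the same subfamily, and the 2 genes most like each expressed member, except 1 gene that is not reported here. SYMPK, SIRT6, TTC6, LNCNEF, FOXP1, FOXO6, MBTPS1, MBTPS2, LINC01273, FOXE1, FOXQ1 and FOXJ3 were named after their values were seen. So were ALB, CRP, HAMP, CDX2, PDX1 and SOX10, as examples of genes at 0. The calculations were tested on simulated libraries and used Python 3.11.15, numpy 2.4.6, pandas 2.3.3 and matplotlib 3.10.9.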

Additional observations from a re-analysis of the deposited data

How the results depend on the processing

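No paired analysis was possible because only 1 condition was sampled. Leaving out mitochondrially encoded genes before scaling, which held 19.9%, 20.2% and 20.2% of all TPM in replicates 1, 2 and 3, raised the means to 91.5 TPM for CEBPB, 2.87 TPM for FOXA1 and 2.20 TPM for CEBPA, as its construction requires. With a minimum of 10 TPM, the genes that passed in every library fell from 3 to 1 of the members, from 4 to 1 of the cut and prospero relatives, from 25 to 14 of the FOX family, from 2 to 0 of the factors of other lineages and from 1 to 0 of the listed noncoding RNAs. Of all 39320 rows, 13307 reached 1 TPM in every library and 8137 reached 10 TPM. With a minimum of 0.1 TPM the genes that passed rose from 1 to 2 of the known targets, from 2 to 4 of the factors of other lineages, from 25 to 32 of the FOX family and from 4 to 5 of the cut and prospero relatives. The share of all rows at 0.1 TPM was not computed.

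The percentile among expressed genes moved from 12.1 to 35.4 for FOXA1, from 8.17 to 32.5 for CEBPA and from 85.0 to 89.0 for CEBPB when genes averaging 0.1 TPM or more were included. It was 69.2, 67.9 and 94.8 with no filter and 20.0, 18.2 and 89.1 by coverage. The ratio of coverage to FPKM differed between genes, so percentiles by coverage do not compare genes on an equal scale. With each replicate left out, the percentile of FOXA1 ranged from 11.8 to 12.2 and the mean of CEBPB from 64.7 to 79.8 TPM. Added to CEBPB-AS1, an alternative chosen after the data were seen, CEBPB had a mean of 80.7 TPM. None of the 28 log2 ratios between members changed to the opposite sign with a pseudocount of 0.1, FPKM, coverage or a replicate left out, but those of FOXA3 to FOXA2, PROX1 and ONECUT1 became 0 without replicate 2, the library with the FOXA3 value above 0. By coverage 2 instead of 3 pairs of neighbours did not overlap. The depth of the libraries limits every member listed at 0, since the smallest level that could be seen was not worked out for each row. A value as low as 0.0237 TPM was listed, that of FOXA3 in replicate 2.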

Other observations

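TLE1, TLE2, TLE3 and TLE4, the Groucho corepressors that FOXA proteins can recruit, all reached 1 TPM in every library. The same limit was met by 33.8% of all rows and 59.5% of protein-coding rows. TLE4 had 57.9 ± 3.65 TPM, TLE3 had 24.3 ± 0.958 TPM, TLE1 had 21.7 ± 1.16 TPM and TLE2 had 2.22 ± 0.183 TPM (SD, n = 3). In each library TLE4, TLE3 and TLE1 were thus above FOXA1, the FOXA gene with the highest level. Among the FOX genes, FOXE1, a factor of the thyroid, had 31.9, 31.3 and 29.0 TPM in replicates 1, 2 and 3 and ranked 5th. It lay between FOXQ1 at 31.7 ± 1.27 TPM and FOXJ3 at 23.5 ± 1.98 TPM (SD, n = 3). FOXE1, FOXQ1 and FOXJ3 were named after their values were seen.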
